A study of Mus musculus with 3 samples.

Results

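The complement system is described here through 31 genes that encode its components, regulators and receptors, chosen by symbol from the 30360 genes counted in single cells of the mouse left ventricle. All 31 were in the gene list of every library, and 30 of them had at least 50 UMIs (unique molecular identifiers, 1 per captured RNA molecule) over the cells kept. Each of the 3 libraries held cells from 4 pooled samples, and there was 1 library per group. The library labelled HFpEF-FoxO1-sh came from C56Bl6 mice (spelled as labelled) that had 6 weeks of the High-Fat + L-NAME diet and 4 weeks of AAV-FoxO1-sh, a viral vector carrying a hairpin against Foxo1. The HFpEF-scr library shared that diet and timing and had AAV-scramble-sh in place of the Foxo1 hairpin. The Control library came from mice on a control diet for 10 weeks, and its labels name no vector, so diet and vector differ together between HFpEF-scr and Control. Neither the animals' age, nor the serotype of the vector, nor the promoter that drives the hairpin is given in the sources used here. L-NAME blocks nitric oxide synthases, and together with a high-fat diet it is used in mice as a model of heart failure with preserved ejection fraction, which the label HFpEF abbreviates. The tissue was digested, passed through a 70 µm strainer that takes out cardiomyocytes, cleared of debris and treated to lyse red cells, so the values describe the other cells of the ventricle.

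Complement is a cascade of plasma proteins in which C1q bound to a target switches on the proteases C1r and C1s, lectins act through their own proteases, and all routes meet where C3 is cut. Later components assemble into the membrane attack complex, while soluble and membrane-bound regulators hold the cascade back and receptors on leukocytes read its fragments. The liver makes most of the circulating proteins, but macrophages are the main known source of C1q, and fibroblasts in many tissues make C3, C1r, C1s and their inhibitor.

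The deposited files held 27453, 36179 and 33022 cell barcodes in the HFpEF-FoxO1-sh, HFpEF-scr and Control libraries, with 144561934, 154385813 and 146230530 UMIs. Barcodes with over 20% of their UMIs on mitochondrial genes made up 31.2% of the HFpEF-FoxO1-sh library, 53.8% of HFpEF-scr and 56.9% of Control, and they were left out with marked doublets. The 16854, 14567 and 12757 cells kept in the same order had medians of 6607, 6520 and 6889 UMIs, while their median mitochondrial share was 9.32% in HFpEF-FoxO1-sh, 12.6% in HFpEF-scr and 12.9% in Control. The HFpEF-FoxO1-sh library therefore stands apart in this measure of RNA quality, and that moves with the comparison of vectors. Between 497 and 594 barcode sequences per library also occurred in another library. Foxo1, the target of the hairpin, had 59.7 counts per 1000000 UMIs (CPM) in the library labelled HFpEF-FoxO1-sh, against 56.2 CPM in HFpEF-scr and 61.1 CPM in Control, so it was above HFpEF-scr and slightly below Control. In fibroblasts it had 64.0, 58.5 and 63.9 CPM in the same order, and in endothelial cells 69.8, 79.1 and 72.7 CPM. Values from that library are therefore given as those of its label and not of a measured loss of Foxo1 over all cells. A group is 1 library, so no test between groups was possible, and every interval here covers counting error only, not the spread between animals. Fold changes of at least 1.5 in either direction, in genes with at least 50 UMIs over both libraries, are called past the fold.

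The cells fell into 17 named classes, of which fibroblasts were the most numerous with 10723, 9390 and 8504 cells in HFpEF-FoxO1-sh, HFpEF-scr and Control. Macrophages followed with 2005, 1590 and 1144 cells, and the endothelial class had 308, 384 and 229 cells. The 31 genes took 0.553% of all UMIs in HFpEF-FoxO1-sh cells, 0.469% in HFpEF-scr cells and 0.438% in Control cells. Levels are in CPM, relative to all UMIs of a class in a library. Because the kit counts 1 tag near the 3′ end of a molecule, no level was divided by gene length and levels are compared between libraries and classes, not between genes.

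Among the 30 genes with enough UMIs, and over the 12 classes with at least 50 cells in every library, 8 were highest in macrophages by the mean of the 3 libraries, 7 in fibroblasts, 4 in endocardial cells and 3 in Schwann cells. Monocytes and B cells were highest for 2 genes each. Smooth muscle, lymphatic endothelial, endothelial and dendritic cells were each highest for 1. C1rl, C2, Vtn, Cd46, C5ar1 and Itgb2 were highest in different classes in different libraries. The share of all genes that are highest in each class was not computed. The macrophage group held the C1q chains C1qa, C1qb and C1qc with C6, Cfp, C3ar1, C5ar1 and Vsig4. The fibroblast group held C1ra, C1s1, C1rl, C3, C7, Colec12 and Serping1. The chains that recognise a target and the proteases that they switch on were thus highest in different classes.

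**Figure D1:**
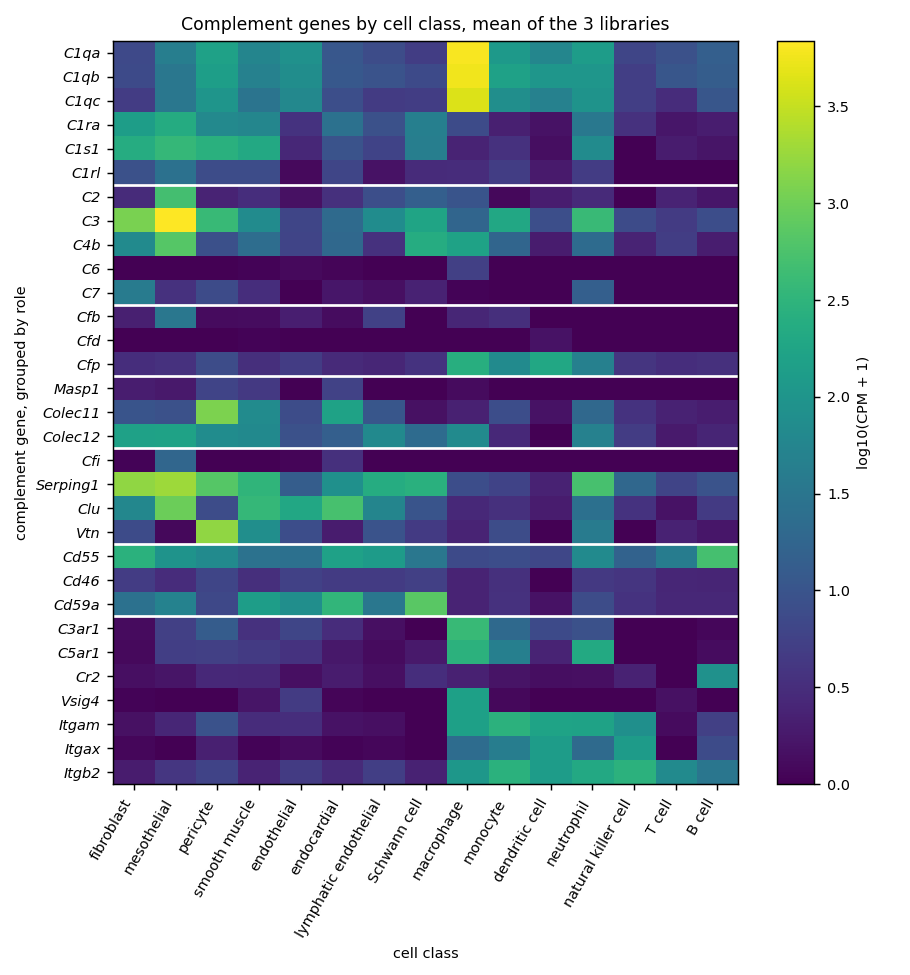
Level of each complement gene (down the page, grouped by role) in the named cell classes other than erythroid cells and cardiomyocytes, as the colour of log10(CPM + 1) of the mean over the 3 libraries, with lighter colours for higher levels. The C1q chains are lightest in macrophages, where the libraries lie between 3940 and 6782 CPM, and C3 is lightest in mesothelial cells.

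Some classes with under 50 cells in at least 1 library also stood out among the complement genes. Mesothelial cells, the lining of the heart's outer surface, numbered 90, 45 and 107 in HFpEF-FoxO1-sh, HFpEF-scr and Control. Their C3 level was 8914, 5851 and 5969 CPM in that order, several times that of fibroblasts in each library. C2, the protease that joins C4 in the classical C3 convertase, had 507, 459 and 506 CPM in mesothelial cells and no more than 22.0 CPM in any class with at least 50 cells in every library. Of the 31 genes, 11 had their highest level of all 17 classes in mesothelial cells, by the mean of the libraries. These were C1ra, C1s1, C1rl, C2, C3, C4b, Cfb, Cfi, Serping1, Clu and Colec12. Colec12 was nearly level, at 160 CPM there and 159 CPM in fibroblasts. The share of all genes that are highest in mesothelial cells was not computed. Pericytes, the cells around capillaries, numbered 301, 45 and 116. They were highest for Vtn, with 2108, 1243 and 1383 CPM, and for Colec11, with 1646, 1070 and 938 CPM. Masp1 and Cd46 were also highest in pericytes, at low means of 5.22 and 5.42 CPM.

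The recognition subunit C1q consists of C1qa, C1qb and C1qc chains, and all of them were most abundant in macrophages. C1qa had 6782 CPM in HFpEF-FoxO1-sh macrophages, 5723 CPM in HFpEF-scr and 6289 CPM in Control. C1qb had 6412, 5283 and 5715 CPM in that order. C1qc had 4614, 3940 and 4294 CPM. The HFpEF-scr macrophages were lowest for each chain, at ratios to Control of 0.910, 0.924 and 0.918 for C1qa, C1qb and C1qc, and HFpEF-FoxO1-sh was above HFpEF-scr at 1.19, 1.21 and 1.17. None of these ratios was past the fold. The 18 macrophage markers summed to 14624, 12518 and 14479 CPM in the same macrophages, with all 18 detected in each library, and their part in the C1q values was not tested. All 3 chains were found together in 98.5% of HFpEF-FoxO1-sh macrophages, 96.9% of HFpEF-scr and 96.4% of Control.

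The genes of the chains lie side by side on the minus strand of chromosome 4 (mm10), C1qb at chr4:136880129-136886187, C1qc at chr4:136889804-136893065 and C1qa at chr4:136895917-136898803, each with 3 exons in its annotated transcript. The promoter stretches of C1qb and C1qc are shown because these neighbours had the same order of libraries and nearly the same ratios. Each runs from 250 bases before the RefSeq start of the gene to 50 bases after it, 5′ to 3′ on the gene's strand, from RefSeq on GRCm38.p6. The RefSeq start differs from the start of the gene coordinates given here and lies upstream of it in C1qb and downstream of it in C1qc. The C1qb stretch is chr4:136886151-136886450 and the C1qc stretch is chr4:136892865-136893164, both on the minus strand. Capitals in C1qc mark the only match to GAGGAAGT, the letters searched for PU.1, a regulator of macrophage genes, read here on the opposite strand.
C1qb: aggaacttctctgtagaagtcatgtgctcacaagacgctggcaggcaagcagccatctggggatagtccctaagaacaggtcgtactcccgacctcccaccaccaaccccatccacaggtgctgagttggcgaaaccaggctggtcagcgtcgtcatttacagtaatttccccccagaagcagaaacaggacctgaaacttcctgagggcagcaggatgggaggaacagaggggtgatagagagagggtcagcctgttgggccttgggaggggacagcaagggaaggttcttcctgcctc
C1qc: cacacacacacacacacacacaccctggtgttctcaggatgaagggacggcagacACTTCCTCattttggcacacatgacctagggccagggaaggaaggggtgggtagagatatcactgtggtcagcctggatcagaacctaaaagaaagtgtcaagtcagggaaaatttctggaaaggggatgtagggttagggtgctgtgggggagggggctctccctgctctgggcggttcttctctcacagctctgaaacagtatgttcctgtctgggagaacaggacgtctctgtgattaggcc
C1qb held none of the motifs searched. GAGGAAGT was found in 1 of 22 promoter entries of the complement genes and in 3.20% of all 32851 entries.

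Within each library the chains kept nearly one proportion in macrophages. C1qa made up 38.1% of the C1q UMIs in HFpEF-FoxO1-sh macrophages, 38.3% in HFpEF-scr and 38.6% in Control. C1qb made up 36.0%, 35.3% and 35.1% in that order. In fibroblasts the chains were also found, at a summed 18.5, 14.8 and 14.8 CPM, with C1qa at 38.0%, 39.0% and 35.7% of them. All 3 chains were present together in 0.345%, 0.319% and 0.282% of fibroblasts. The 18 macrophage markers summed to 253, 245 and 199 CPM in those fibroblasts, and all 18 were detected in each library. Their part in the fibroblast values of C1q was not tested. The erythroid and cardiomyocyte clusters carried C1q at 8409 to 9326 CPM and 2324 to 3009 CPM, beside macrophage marker sums of 6981 to 7656 CPM and 2539 to 4059 CPM, and are not described further.

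The macrophages formed 3 clusters made without the complement genes. The cluster led by Ccl24, Ccl8 and Folr2, genes of resident cardiac macrophages, had C1qa at 7507, 6769 and 7154 CPM in HFpEF-FoxO1-sh, HFpEF-scr and Control. The cluster led by Cd72, Scimp, Fcgr4 and H2-Eb1, the last an antigen-presentation gene, had 6407, 5683 and 5900 CPM. The cluster led by Fn1, Spp1 and Gpnmb had 1415, 1144 and 845 CPM. C1q was thus present in all of them and lowest in the last, which made up 3.79% of HFpEF-FoxO1-sh macrophages, 6.98% of HFpEF-scr and 4.90% of Control.

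**Figure D2:**
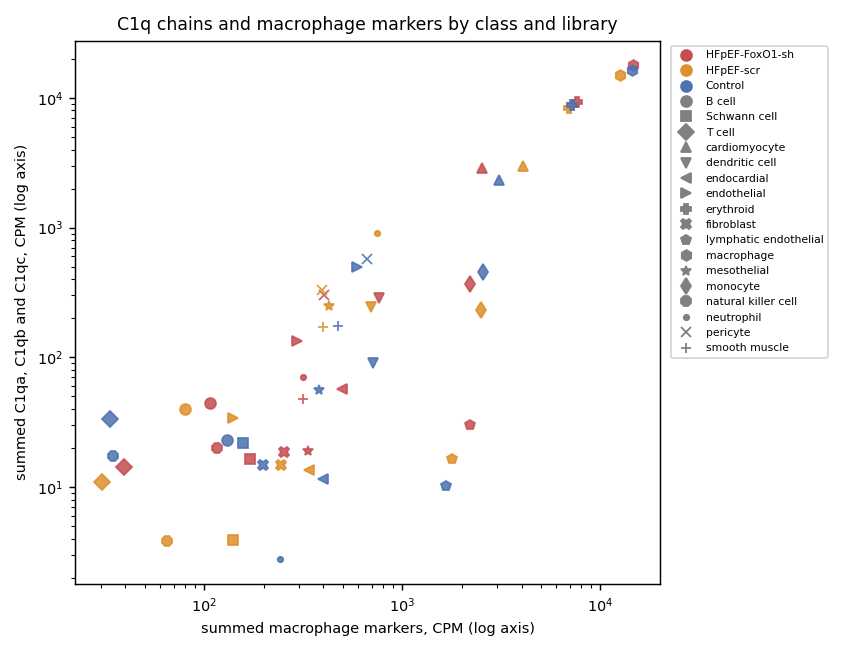
Summed CPM of C1qa, C1qb and C1qc against the summed CPM of the macrophage markers, 1 point per class and library, coloured by library and shaped by class, both axes on a log scale. Macrophages lie at the upper right with 14945 to 17808 CPM of C1q, and the erythroid clusters lie near them at 8409 to 9326 CPM.

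The other genes of the first component differed by less than 1.5-fold between the libraries in all kept fibroblasts. C1ra, the protease C1r, had 148 CPM in HFpEF-FoxO1-sh fibroblasts, 136 CPM in HFpEF-scr and 123 CPM in Control. C1s1, the protease C1s, had 256, 246 and 212 CPM in that order, and C1rl, a protease related to C1r, had 7.95, 7.51 and 8.35 CPM. The ratio of HFpEF-scr to Control was 1.10 (95% counting interval 1.07 to 1.14) for C1ra and 1.16 (1.13 to 1.19) for C1s1, and C1s1 was above 1 in 8 of 8 fibroblast clusters with at least 20 cells in every library. For HFpEF-FoxO1-sh over HFpEF-scr C1ra and C1s1 had 1.09 and 1.04. In fibroblasts with at most 10% mitochondrial UMIs they had 1.31 and 1.33 for that comparison. In macrophages C1ra was a low gene, with 7.20, 4.53 and 8.10 CPM from 98, 49 and 68 UMIs. There it was past the fold in both comparisons, at 0.559 (0.379 to 0.819) in HFpEF-scr over Control and 1.59 (1.12 to 2.29) in HFpEF-FoxO1-sh over HFpEF-scr. The first call was lost with macrophage clusters weighted equally, where the ratio was 0.848, and so was the second, at 1.37. The ratios were 0.269 and 3.60 in cells with at most 10% mitochondrial UMIs. The 0.269 rests on under 50 UMIs over both libraries and was not called. The calls were kept in 8 and 9 of 11 other settings. C1ra and C1s1 have close copies in the mouse genome, C1rb and C1s2, and reads shared with them could move these counts.

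In fibroblasts, the comparison of HFpEF-scr with Control asks how the diet and the vector together go with complement levels. Of the 24 complement genes with at least 50 UMIs there, 1 was higher by at least 1.5-fold (Itgb2), where 2.08% of all 13644 genes measured were, and 2 were lower (C7 and Vtn), where 2.10% of all genes were. The median log2 ratio was 0.09 for the complement genes and -0.01 for all genes. The comparison of HFpEF-FoxO1-sh with HFpEF-scr asks what goes with the Foxo1 hairpin under the same diet. Of 25 complement genes, 4 were higher (C7, Vtn, C2 and Cfb), against 1.98% of all 13772 genes. Another 3 were lower (C3ar1, Itgam and Itgb2), against 2.72% of all genes, and the median was 0.07 beside 0.04 for all genes. In cells with at most 10% mitochondrial UMIs, 15 complement genes were past the fold in place of 7, with a median of -0.25. HFpEF-scr over Control had 9 in place of 3 there and a median of 0.21. The share and median of all genes were not computed at that limit. Both comparisons use the HFpEF-scr library, so a low value there lowers the first ratio and raises the second.

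**Figure D3:**
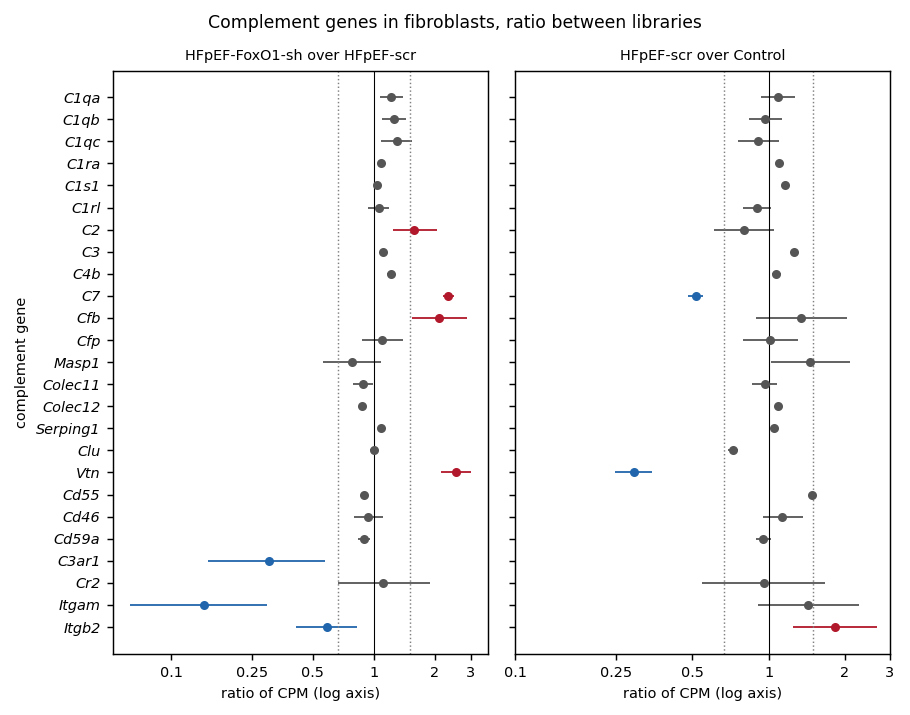
Ratio of CPM in fibroblasts for each complement gene with at least 50 UMIs over both libraries, HFpEF-FoxO1-sh over HFpEF-scr and HFpEF-scr over Control, on a log axis, with 95% counting intervals, dotted lines at the 1.5-fold limits, and red or blue for genes past the fold upward or downward. C7 and Vtn lie past the limit on opposite sides in the pair of comparisons, at 2.33 and 0.514 for C7 and at 2.54 and 0.293 for Vtn.

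C7, which joins C5b and C6 and gives the growing membrane attack complex its hold on the membrane, was past the fold in both comparisons. It had 51.3 CPM in HFpEF-FoxO1-sh fibroblasts, 22.0 CPM in HFpEF-scr and 42.8 CPM in Control, from 4012, 1412 and 2620 UMIs. HFpEF-scr was the low library, and HFpEF-FoxO1-sh was the highest. The ratio was 0.514 (0.481 to 0.548) for HFpEF-scr over Control and 2.33 (2.20 to 2.48) for HFpEF-FoxO1-sh over HFpEF-scr. A C7 UMI was found in 21.6% of HFpEF-FoxO1-sh fibroblasts, 10.3% of HFpEF-scr and 17.7% of Control, against 0.0499%, 0.0629% and 0.0874% of macrophages, which had similar median UMIs of 6349, 6018 and 6729 beside 6900, 6516 and 6838 in fibroblasts. After each fibroblast was thinned to 1000 UMIs the shares were 4.67%, 2.18% and 4.07%.

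The difference in C7 was past the fold in each of the larger fibroblast clusters as well. In 8 of 8 clusters the ratio of HFpEF-scr to Control was below 1, between 0.395 and 0.665, and the ratio of HFpEF-FoxO1-sh to HFpEF-scr was above 1, between 1.65 and 3.42. The cluster led by Igfbp3 and Fgl2 had C7 at 74.1 CPM in HFpEF-FoxO1-sh, 32.8 CPM in HFpEF-scr and 62.5 CPM in Control. Another of the larger clusters had more C7 than it in HFpEF-scr. The cluster led by Wif1, Dkk3 and Comp had the lowest C7, with 10.4, 6.31 and 11.8 CPM. Both ratios stayed past the fold in 12 of 12 other settings. The ratio of HFpEF-FoxO1-sh to HFpEF-scr was 2.25 with mitochondrial UMIs left out of the totals. It was 2.30 in cells with at most 10% of them, beside 2.33 in all kept fibroblasts. The part of the mitochondrial share in the C7 values was not tested.

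**Figure D4:**
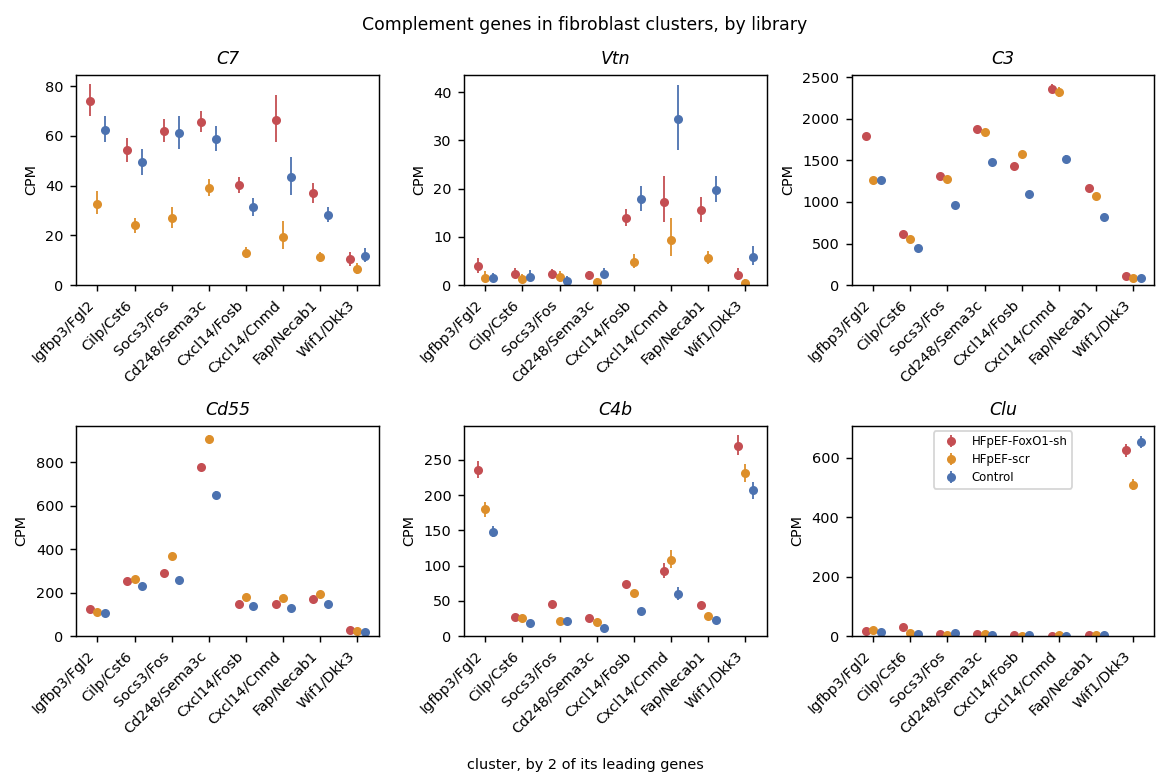
CPM of C7, Vtn, C3, Cd55, C4b and Clu in each fibroblast cluster, 1 panel per gene, with clusters named by a pair of leading genes along the x axis and points for HFpEF-FoxO1-sh, HFpEF-scr and Control with 95% counting intervals. The HFpEF-scr point for C7 is the lowest of the 3 in each of the 8 larger clusters, from 6.31 to 39.1 CPM.

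The C7 gene lies on the minus strand of chromosome 15 at chr15:4988762-5063740 (mm10) with 18 exons. Its promoter stretch is printed because C7 was past the fold in every larger fibroblast cluster, and that of Vtn because Vtn had the same order of ratios. The C7 stretch is chr15:5063724-5064023 on the minus strand and the Vtn stretch is chr11:78498870-78499169 on the plus strand, both from RefSeq on GRCm38.p6 and 5′ to 3′ on the gene's strand. Capitals mark matches to GAAANNGAA, an interferon-type element, and to TTCNNNGAA, a STAT-type element, on either strand.
C7: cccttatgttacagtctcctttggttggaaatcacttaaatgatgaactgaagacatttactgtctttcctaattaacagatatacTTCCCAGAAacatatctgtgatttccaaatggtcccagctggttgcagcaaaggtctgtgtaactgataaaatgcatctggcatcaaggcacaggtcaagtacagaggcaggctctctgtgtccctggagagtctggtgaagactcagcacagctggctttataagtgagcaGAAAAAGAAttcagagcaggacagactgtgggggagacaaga
Vtn: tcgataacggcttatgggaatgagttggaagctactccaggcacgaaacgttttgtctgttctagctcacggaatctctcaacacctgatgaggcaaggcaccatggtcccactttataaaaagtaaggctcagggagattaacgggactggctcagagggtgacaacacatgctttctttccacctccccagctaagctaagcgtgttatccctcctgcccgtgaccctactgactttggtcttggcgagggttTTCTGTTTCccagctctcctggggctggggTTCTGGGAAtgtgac
In C7 the STAT-type match comes first. The interferon-type match of C7 lies after the RefSeq start, which is upstream of the start of the gene coordinates given here, and lies before that other start. In Vtn both matches lie after the RefSeq start, the interferon-type one first. GAAANNGAA occurred in 6 of the 22 promoter entries, those of C5ar1, C7, Cd46, Cd59a, Colec11 and Vtn, and in 8.56% of all entries. TTCNNNGAA occurred in 4, those of C1ra, C7, Colec11 and Vtn, and in 8.30% of all. TGTTTAC, the letters searched for FoxO factors on both strands, occurred in 0 of the 22 entries and in 3.65% of all. These matches describe the letters of a short window and show no binding. The entries covered 21 of the 31 genes.

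Vtn encodes vitronectin, which binds the forming attack complex and keeps it out of membranes. In fibroblasts it had 7.15 CPM in HFpEF-FoxO1-sh, 2.82 CPM in HFpEF-scr and 9.62 CPM in Control, from 559, 181 and 589 UMIs. HFpEF-scr was again the lowest, with ratios of 0.293 (0.247 to 0.347) to Control and 2.54 (2.14 to 3.02) for HFpEF-FoxO1-sh over it. The UMIs were few and concentrated in the clusters led by Cxcl14 and by Fap. In 3 clusters with enough UMIs the ratios were 0.272 to 0.282 and 1.86 to 2.86. Vtn is also the gene most abundant in pericytes, and the 12 pericyte markers summed to 402, 395 and 420 CPM in fibroblasts, with all 12 detected in each library. Among them Rgs5 had 31.6, 27.4 and 33.0 CPM and Higd1b 0.921, 0.826 and 1.52 CPM. Their part in the Vtn values was not tested. HFpEF-scr was not the lowest library for Vtn in smooth muscle, with 111, 68.1 and 58.6 CPM in HFpEF-FoxO1-sh, HFpEF-scr and Control. In macrophages Vtn had 1.84, 1.39 and 0.953 CPM, from under 50 UMIs over both libraries of either comparison. In pericytes HFpEF-scr was the lowest library for Vtn, with 45 cells there.

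The proteases of the C3 convertases were low in fibroblasts. C2 had 2.44, 1.54 and 1.93 CPM in HFpEF-FoxO1-sh, HFpEF-scr and Control, and Cfb, factor B of the alternative pathway, had 1.92, 0.919 and 0.686 CPM. Both were past the fold in HFpEF-FoxO1-sh over HFpEF-scr, C2 at 1.58 (1.24 to 2.04) and Cfb at 2.09 (1.54 to 2.87), from 191 and 150 UMIs in HFpEF-FoxO1-sh, against 99 and 59 UMIs in HFpEF-scr. Classing each cell singly took C2 to 1.42, while Cfb stayed above the fold wherever at least 50 UMIs were left. Both had their highest level among the larger fibroblast clusters in the one led by Igfbp3, where C2 had 9.48, 5.55 and 5.68 CPM and Cfb 8.89, 4.21 and 2.45 CPM. That cluster held 65 of the 191 C2 UMIs of HFpEF-FoxO1-sh fibroblasts and 33 of the 99 of HFpEF-scr. The genes C2 and Cfb are neighbours on chromosome 17, at chr17:34862604-34898265 and chr17:34856374-34862518 (mm10).

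C3, the protein on which all routes converge, had 1347 CPM in HFpEF-FoxO1-sh fibroblasts, 1210 CPM in HFpEF-scr and 963 CPM in Control. It was not past the fold in fibroblasts, with 1.26 (1.24 to 1.27) for HFpEF-scr over Control and 1.11 (1.10 to 1.12) for HFpEF-FoxO1-sh over HFpEF-scr. In cells with at most 10% mitochondrial UMIs these ratios were 1.12 and 1.35. C3 was past the fold in Schwann cells, at 2.03 and 0.350 in that order of comparisons. So it was in endocardial cells, at 0.658 and 3.08. The share of all genes past the fold was not computed in those classes. Within all kept fibroblasts the ratio of HFpEF-scr to Control ran from 0.944 in the Wif1 cluster to 1.52 in a Cxcl14 cluster and was above 1 in 6 of 8 clusters. C3 levels themselves differed more between clusters than between libraries, from 111, 84.9 and 89.9 CPM in the Wif1 cluster to 2359, 2318 and 1521 CPM in the Cxcl14 cluster that is also led by Cnmd. C4b, the C4 protein of the classical route, had 79.6, 65.8 and 61.3 CPM in fibroblasts, and 206, 151 and 136 CPM in macrophages. In fibroblasts its ratio of HFpEF-scr to Control was 1.07, and 0.813 in cells with at most 10% mitochondrial UMIs. Its highest class with at least 50 cells in each library was the Schwann cells, with 283, 273 and 164 CPM. There it was past the fold for HFpEF-scr over Control, at 1.66 (1.23 to 2.26). Reads from C4a, a close copy, could enter its count. C6, another part of the attack complex, was found almost wholly in macrophages, at 5.29, 5.08 and 2.62 CPM from 72, 55 and 22 UMIs. Its ratio of 1.94 (1.16 to 3.34) for HFpEF-scr over Control was past the fold, and it was 0.959 with cells thinned to 1000 UMIs. Fibroblasts held 1, 1 and 0 UMIs of C6.

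Properdin and factor D complete the alternative route. Cfp, properdin, which stabilises the C3 convertase, had 292 CPM in HFpEF-FoxO1-sh macrophages, 224 CPM in HFpEF-scr and 260 CPM in Control, at ratios of 1.31 and 0.861 that were not past the fold. The ratio of HFpEF-FoxO1-sh to HFpEF-scr was 1.03 in macrophages with at most 10% mitochondrial UMIs and 1.47 at a limit of 50%. Dendritic cells had 231, 200 and 161 CPM of Cfp. Cfd, factor D or adipsin, a protease known from fat cells, had 3, 0 and 3 UMIs over all kept cells, too few for any comparison. In HFpEF-scr, the 3 UMIs that a count of 0 allows correspond to 0.0290 CPM.

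The lectin route was represented by Masp1, its protease, and by the collectins Colec11 and Colec12. Masp1 had 4.54, 5.15 and 4.29 CPM in endocardial cells, its highest class with at least 50 cells in each library, and 0.985, 1.26 and 0.866 CPM in fibroblasts. Colec11, a soluble collectin, had 176, 155 and 163 CPM in endocardial cells, a difference within 1.5-fold. Colec12, a membrane collectin with scavenger activity, had 148 CPM in HFpEF-FoxO1-sh fibroblasts, 171 CPM in HFpEF-scr and 156 CPM in Control. In macrophages it had 76.9, 50.7 and 76.2 CPM, and HFpEF-scr was the low library there. The macrophage ratios were 0.665 (0.593 to 0.747) for HFpEF-scr over Control and 1.52 (1.37 to 1.68) for HFpEF-FoxO1-sh over HFpEF-scr. Each is just past the fold and stayed so in 3 of 11 other settings. Nearly all of it was in the cluster led by Ccl24, with 125, 92.4 and 120 CPM, against 5.76, 4.23 and 4.34 CPM in the cluster led by Cd72.

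In macrophages, of 18 complement genes with enough UMIs, C6 was the 1 gene higher in HFpEF-scr than in Control, against 2.15% of all 10235 genes, and 2 were lower (C1ra and Colec12), against 2.11%. The median log2 ratio was 0.01 beside -0.02 for all genes. In HFpEF-FoxO1-sh over HFpEF-scr, 2 of 18 were higher (C1ra and Colec12), against 2.43% of all 10648 genes, and 1 was lower (Itgax), against 2.61%. The median was 0.11 beside 0.04. In cells with at most 10% mitochondrial UMIs, 0 were past the fold in HFpEF-scr over Control, and in HFpEF-FoxO1-sh over HFpEF-scr the median was -0.03. Values for all genes were not computed at that limit. The counts are a few genes of low or borderline values, and the abundant C1q chains, Cfp, C3ar1 and C5ar1 were not among them.

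Among the soluble regulators, Serping1, the inhibitor of C1r and C1s, was highest in fibroblasts of the classes with at least 50 cells in every library. It had 1699 CPM in HFpEF-FoxO1-sh, 1568 CPM in HFpEF-scr and 1491 CPM in Control, and a UMI in 98.9%, 98.0% and 98.1% of fibroblasts. HFpEF-FoxO1-sh exceeded HFpEF-scr at a ratio of 1.08, above 1 in 8 of 8 clusters, and 1.05 for HFpEF-scr over Control. Clu, clusterin, which also blocks the attack complex, had 51.8, 51.7 and 71.7 CPM in fibroblasts. Its fibroblast level came mostly from the Wif1 cluster, with 624, 509 and 653 CPM, which made up 5.40%, 7.74% and 8.54% of fibroblasts. In endocardial cells Clu had 670, 490 and 397 CPM. Cfi, factor I, which cuts C3b and C4b, was rare, with 4.19, 1.47 and 1.43 CPM in endocardial cells. These values rest on under 50 UMIs over both libraries of either comparison, too few for a call.

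Of the regulators on membranes, Cd55, which speeds the decay of the convertases, came closest to the fold in fibroblasts. It had 293 CPM in HFpEF-FoxO1-sh, 328 CPM in HFpEF-scr and 221 CPM in Control. The ratio of HFpEF-scr to Control was 1.48 (1.45 to 1.52), and it was above 1 in 8 of 8 clusters, between 1.05 and 1.41. HFpEF-FoxO1-sh lay below HFpEF-scr at a ratio of 0.896 (0.879 to 0.913). The cluster led by Cd248, Sema3c and Pi16 had the most Cd55, with 779, 906 and 649 CPM, and it made up 16.3%, 16.4% and 12.5% of fibroblasts in HFpEF-FoxO1-sh, HFpEF-scr and Control. The Cd55-poor cluster led by Igfbp3 made up 9.97%, 11.2% and 17.1%. With the clusters weighted equally the ratio of HFpEF-scr to Control was 1.31. B cells had 549, 492 and 490 CPM. Cd59a, which stops the last step of the attack complex, was highest in Schwann cells with 856, 599 and 678 CPM, and had 23.5, 26.4 and 27.9 CPM in fibroblasts. Cd46, a cofactor of factor I known in the mouse mainly from testis, stayed between 3.64 and 4.13 CPM in fibroblasts. Cd55 and Cd59a have copies, Cd55b and Cd59b, whose reads could be shared with them.

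The receptors were genes of immune cells. C3ar1, the receptor for the fragment C3a, had 378 CPM in HFpEF-FoxO1-sh macrophages, 401 CPM in HFpEF-scr and 360 CPM in Control. C5ar1, the receptor for C5a, had 310, 286 and 273 CPM there, and 331, 188 and 131 CPM in neutrophils. Those neutrophil libraries carried fibroblast RNA in the opposite order, with 15 fibroblast markers at 6161, 19930 and 26663 CPM, and its part in the C5ar1 values was not tested. Vsig4, a receptor for C3b on resident macrophages, had 112 CPM in HFpEF-FoxO1-sh macrophages, 168 CPM in HFpEF-scr and 172 CPM in Control. The ratio of HFpEF-FoxO1-sh to HFpEF-scr was 0.667 (0.623 to 0.714), at the limit without passing it, and it was past the fold in 7 of 11 other settings. In the cluster led by Ccl24 it was 166, 278 and 263 CPM. In the cluster led by Fn1 there were 0 UMIs of Vsig4 in each library, which allows up to 3.88, 2.34 and 4.63 CPM (3 UMIs) in HFpEF-FoxO1-sh, HFpEF-scr and Control. The HFpEF-FoxO1-sh level over that of HFpEF-scr was 0.595 within the Ccl24 cluster and 0.654 within the Cd72 cluster.

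The integrin chains Itgam and Itgax pair with Itgb2 to form complement receptors 3 and 4. In macrophages Itgam had 154, 147 and 145 CPM and Itgb2 101, 111 and 108 CPM. Itgax had 16.3 CPM in HFpEF-FoxO1-sh, 26.4 CPM in HFpEF-scr and 21.7 CPM in Control, with a ratio of 0.618 (0.516 to 0.738) for HFpEF-FoxO1-sh over HFpEF-scr that was past the fold in 3 of 10 other settings. It was highest in the cluster led by Fn1, with 95.7, 133 and 162 CPM, and had 28.8, 27.5 and 24.9 CPM in the cluster led by Cd72. With the macrophage clusters weighted equally the ratio was 0.778. Dendritic cells had 159, 140 and 94.4 CPM of Itgax, and natural killer cells had 104, 171 and 112 CPM from 26, 45 and 26 UMIs. Cr2, a receptor for C3d that B cells use, had 84.1, 94.2 and 77.0 CPM in B cells.

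**Figure D5:**
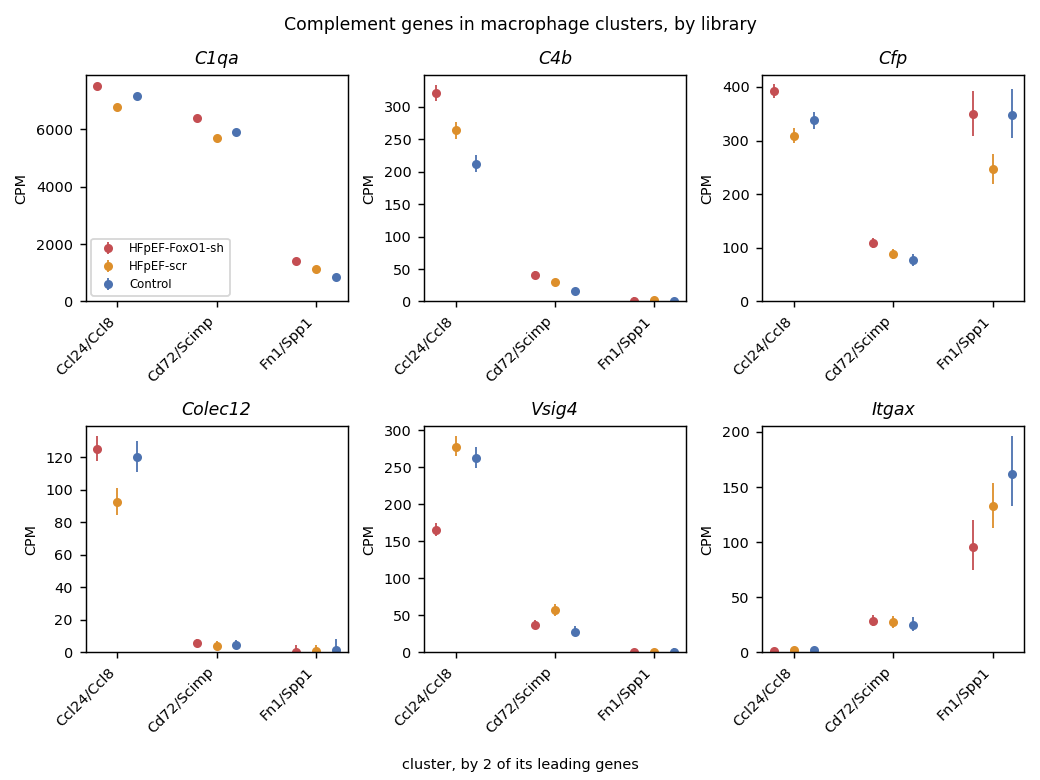
CPM of C1qa, C4b, Cfp, Colec12, Vsig4 and Itgax in the 3 macrophage clusters, 1 panel per gene, clusters named by a pair of leading genes along the x axis, with points for HFpEF-FoxO1-sh, HFpEF-scr and Control and 95% counting intervals. Vsig4 in the Ccl24 cluster lies at 166 CPM in HFpEF-FoxO1-sh, against 278 CPM in HFpEF-scr and 263 CPM in Control.

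In fibroblasts the receptor genes were nearly absent. Itgb2 had 0.768, 1.31 and 0.719 CPM in HFpEF-FoxO1-sh, HFpEF-scr and Control, Itgam 0.115, 0.795 and 0.556 CPM, and C3ar1 0.179, 0.592 and 0.114 CPM. The fibroblast class included a cluster of 43 cells with Ccr2, Plac8 and Lyz2, genes of monocytes, among its leading genes. That cluster held 4 cells in HFpEF-FoxO1-sh, 26 in HFpEF-scr and 13 in Control. Without it, an alternative chosen after seeing the data, Itgb2 had a ratio of 1.05 for HFpEF-FoxO1-sh over HFpEF-scr and 1.38 for HFpEF-scr over Control, so neither call was kept. C3ar1 and Itgam, at 0.441 and 0.205 for HFpEF-FoxO1-sh over HFpEF-scr, stayed lower by more than the fold but had under 50 UMIs, and the complement genes past the fold numbered 4 in place of 7. At a minimum of 1000 UMIs per cell their ratios were 0.908 and 1.07.

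In endothelial cells the complement genes were few and unsteady. Of 8 with enough UMIs, 1 was higher in HFpEF-scr than in Control (Cd55), against 3.63% of all 8577 genes, and 4 were lower (C1qa, C1qb, C1qc and Colec12), against 3.29%. Of 7 genes measured in HFpEF-FoxO1-sh over HFpEF-scr, 4 were higher (C1qa, C1qb, C1qc and Clu), against 3.63% of all 8551 genes, and 0 were lower, against 3.60%. The median log2 ratio was -0.55 beside 0.02 for all genes in HFpEF-scr over Control and 0.97 beside -0.01 in HFpEF-FoxO1-sh over HFpEF-scr. C1qa had 51.4 CPM in HFpEF-FoxO1-sh, 14.8 CPM in HFpEF-scr and 194 CPM in Control. The 18 macrophage markers followed the same order in these cells, at 293, 140 and 588 CPM, with at least 17 detected in each library, and their part in the C1q values was not tested. All 3 chains were present together in 1.62%, 1.04% and 4.80% of endothelial cells. With marked doublets kept, the ratio of C1qa for HFpEF-scr over Control was 2.01 in place of 0.0763. Clu had 288, 147 and 160 CPM, and its ratio of 1.96 (1.76 to 2.19) for HFpEF-FoxO1-sh over HFpEF-scr was 0.807 at a mitochondrial limit of 50%. Cd55 had 24.1, 32.3 and 19.9 CPM, with 1.62 (1.16 to 2.31) for HFpEF-scr over Control.

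A list of 34 other complement genes, 31 of them in the files, was set beside the chosen ones. In fibroblasts 0 of 12 with enough UMIs were past the fold in HFpEF-scr over Control, where 2.08% of all genes were higher and 2.10% lower. In HFpEF-FoxO1-sh over HFpEF-scr 2 of 13 were lower, against 2.72% of all genes, and both were rare, Susd4 with 0.256 CPM in HFpEF-FoxO1-sh against 0.514 CPM in HFpEF-scr, and Colec10 with 0.243 against 0.483 CPM in the same order. In macrophages 1 of 9 was past the fold, Fcna, a ficolin of the lectin route, which was lower in the comparison with Control, against 2.11% of all genes, and higher in that of the vectors, against 2.43%. The list's endothelial values are not reported here. Fcna had 177 CPM in HFpEF-FoxO1-sh, 84.7 CPM in HFpEF-scr and 183 CPM in Control, at 0.464 (0.427 to 0.504) for HFpEF-scr over Control and 2.09 (1.93 to 2.25) for HFpEF-FoxO1-sh over HFpEF-scr. It was found in the cluster led by Ccl24, with 292, 157 and 292 CPM, the cluster that also held most of the macrophage Colec12. Within that cluster the ratios of HFpEF-scr to Control were 0.537 for Fcna and 0.767 for Colec12, and those of HFpEF-FoxO1-sh to HFpEF-scr were 1.86 and 1.35. The cluster made up 55.5%, 52.1% and 60.1% of macrophages in HFpEF-FoxO1-sh, HFpEF-scr and Control. Some markers of resident macrophages were also lowest in HFpEF-scr macrophages, with Lyve1 at 564, 342 and 603 CPM, Timd4 at 133, 71.8 and 136 CPM and Folr2 at 832, 575 and 830 CPM. Vsig4, also a gene of resident macrophages, was not, with 112, 168 and 172 CPM in HFpEF-FoxO1-sh, HFpEF-scr and Control. The other macrophage markers are not given singly here. The part of resident markers in the Fcna and Colec12 values was not tested.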

How the data were processed

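Single-cell RNA libraries were made with the 10x Genomics 3′ HT kit v3.1. The deposited values are UMI counts per gene and barcode, made with Cell Ranger 6.1.2 on mm10, per the submitters' processing notes; the annotation release and the barcode filter are not given in the sources used here. Counts of 3 libraries were analysed as deposited. Barcodes with under 500 UMIs, under 300 genes or over 20% mitochondrial UMIs were left out. Doublets were marked by simulation in scanpy 1.11.5 (537, 342 and 182 in HFpEF-FoxO1-sh, HFpEF-scr and Control, or 3.09%, 2.29% and 1.41%) and removed. Cells were clustered on 2000 variable genes without the complement genes, 30 principal components and 15 neighbours, at Leiden resolution 1.0, and 31 of 46 clusters were named from lists of markers. Unnamed clusters held 4.27%, 7.00% and 5.82% of cells. For each class in each library, UMIs of a gene were added up and scaled to 1000000 UMIs of all genes (CPM). Intervals at 95% are exact Poisson for CPM, Clopper-Pearson for shares and conditional binomial for ratios, and cover counting error only. Log2 ratios use a pseudocount of 1 CPM. Scripts were tested on simulated data. Each library pools 4 samples, so there are no replicates and no test between groups was run.

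The members and lists were chosen with earlier results of these data known. Any of the 31 genes may be named, with full values for those with at least 50 UMIs in a class and either the highest CPM of their role or a ratio past 1.5-fold. Of the other complement genes, those past the fold or among the 6 with the highest CPM of a class may be named; Foxo1, markers and the leading genes of clusters are the only others. One of the other complement genes is not reported here. Alternatives changed the mitochondrial limit, UMI minimum, doublets, resolution, classing, thinning, scaling, cluster weights, shared barcodes, gene minimum, fold and pseudocount.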

Additional observations from a re-analysis of the deposited data

Results flagged for a closer look

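C1ra and Colec12 moved in opposite directions in different cell classes, and the differences between classes were not tested. In HFpEF-scr over Control, C1ra had a ratio of 1.10 in fibroblasts and 0.559 in macrophages. Colec12 had 1.09 in fibroblasts, 0.665 in macrophages and 0.467 in endothelial cells. The endothelial ratio rests on 25 UMIs in HFpEF-scr and 33 in Control and was 1.84 at a mitochondrial limit of 50%. Colec12 in HFpEF-FoxO1-sh over HFpEF-scr had 0.870 in fibroblasts and 1.52 in macrophages. The macrophage ratios of Colec12 were past the fold in 3 of 11 other settings, and within the cluster led by Ccl24 that of HFpEF-scr to Control was 0.767. The macrophage and endothelial values of both genes rest on lower counts than those of fibroblasts.

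Barcodes with over 50% mitochondrial UMIs, which no comparison uses, numbered 4389 in HFpEF-FoxO1-sh, 11020 in HFpEF-scr and 11152 in Control, and some complement genes were above Control in them, as a share of the UMIs that are not mitochondrial. For HFpEF-FoxO1-sh over Control the ratios were 1.10 for C1qb, 2.05 for C1ra, 2.07 for C1s1, 1.82 for C3, 1.39 for Serping1, 1.38 for Vtn and 1.63 for Cd55. For HFpEF-scr over Control they were 1.30 for C3 and 1.66 for C3ar1, while Cd59a was below Control at 0.695 (0.495 to 0.971). The mix of cell classes among these barcodes was not measured.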

How the results depend on the processing

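No paired analysis was possible because each group is 1 library. Over 14 counts, medians and levels, 135 of 190 values under other settings kept close to the reported one and 55 moved; over 57 ratios of single genes, 467 of 642 did so, 161 moved and 14 reversed. The cause of a change was not tested unless the setting itself names it. For these other settings the shares and medians of all genes were not computed. Past the fold in HFpEF-scr over Control, fibroblasts had 9 genes at a mitochondrial limit of 10%, 6 at a minimum of 1000 UMIs, 7 with cells classed singly, 5 with clusters weighted equally, 6 and 9 with a gene minimum of 20 UMIs and none, and 1 at 2-fold, and their median was 0.21 at the 10% limit. In HFpEF-FoxO1-sh over HFpEF-scr they had 15 at the 10% limit, 12 with no gene minimum, and 4 at the 50% limit, with doublets kept, at resolution 2.0, thinned to 1000 UMIs or without the cluster led by monocyte genes, with medians of -0.25 at the 10% limit and -0.06 with cells classed singly. Macrophages in HFpEF-scr over Control had 0 at the 10% limit, thinned or at 2-fold, 1 with clusters weighted equally, and 9 and 10 with a gene minimum of 20 and none. In HFpEF-FoxO1-sh over HFpEF-scr they had 1 with clusters weighted equally, 5 and 6 with those minimums and 0 at 2-fold, with medians of -0.03 at the 10% limit and 0.22 thinned. Endothelial cells in HFpEF-scr over Control had 1 with doublets kept, 0 thinned, and 10 and 22 with those minimums; their medians were 0.13 at the 50% limit, 0.32 with doublets kept, -0.14 classed singly, -0.11 thinned, -0.99 and -0.86 with those minimums and -0.41 at a pseudocount of 5 CPM. In HFpEF-FoxO1-sh over HFpEF-scr they had 2 at the 50% limit, at 1000 UMIs or with doublets kept, 7 classed singly, 1 thinned, and 8 and 18 with those minimums; the medians were 0.06, 0.41, 0.33, 0.51, 0.38, 0.72 and 0.71 in that order. At the 50% limit mesothelial cells passed 50 cells in every library, and fibroblasts were then highest for 1 gene. The 10% limit left too few endothelial cells for a value.

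Reversed ratios in fibroblasts were those of Itgb2, in HFpEF-scr over Control at 0.544 thinned, and in HFpEF-FoxO1-sh over HFpEF-scr at 1.08 with doublets kept, 1.05 at resolution 2.0 and also without the cluster led by monocyte genes, 3.21 thinned and 1.11 with clusters weighted equally, and of Itgam at 1.07 with 1000 UMIs. In macrophages C6 was 0.959 thinned. In endothelial cells HFpEF-scr over Control gave 2.01 for C1qa with doublets kept, and 1.02 for C1qb and 1.84 for Colec12 at the 50% limit, and HFpEF-FoxO1-sh over HFpEF-scr gave 0.853 and 0.830 for C1qc at the 50% limit and thinned, and 0.807 for Clu at the 50% limit.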
